A study of Mus musculus with 11 samples.

Results

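The genes described here are 10 genes of glycogen use, glycolysis, phosphocreatine and oxygen storage that are best known from muscle: Stbd1, Gys1, Pygm, Phka1, Pfkm, Pgam2, Eno3, Ckm, Ckmt2 and Mb. They were found by gene name in the scanner output, with older synonyms and the probe's accession counted, and stood for 10 of 27567 genes by name and 12 of 41121 probes. Stbd1 had 3 probes, 2 of them named through an older synonym, and the other genes had 1 probe each. RNA was measured on 11 Agilent 1-colour arrays. Of these, 5 were of cardiac progenitor cells labelled beta-sarcoglycan null (KO-labelled), 3 were of wild-type (WT-labelled) cardiac progenitors, and 3 were of C2C12, a mouse myoblast line that fuses into muscle fibres in culture and served as the myogenic control. The progenitors are called mesoangioblasts, cells associated with vessel walls, in the series text, and were taken from atrium, ventricle or aorta. Mouse age, culture passage and growth or differentiation state at harvest are not stated.

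Arrays that differed by less than the noise between repeated spots were averaged and counted as 1 sample, which left 3 KO-labelled samples (ventricle, atrium and aorta), 3 WT-labelled samples (ventricle, atrium and aorta) and 2 C2C12 samples. Each KO-labelled or WT-labelled sample therefore came from a different region, and nothing says which came from separate mice, so the p-values measure a spread that is between regions and may in part be technical. The KO-labelled arrays lay on slides 1 and 3 and the WT-labelled arrays on slide 2. C2C12 was on all 3 slides, with sample C2C12 1 from slides 1 and 3 and sample C2C12 2 from slide 2. No slide held both genotypes, so every difference between them was also fitted with the slide set as a block, which links the genotypes through C2C12. An array had 49.0 to 62.0% of its probes well above background. The brightest probe of Sgcb, which encodes beta-sarcoglycan, was at 2.99, 2.64 and 2.34 in KO-labelled ventricle, atrium and aorta cells, against 2.20, 2.07 and 1.82 in WT-labelled cells of those regions. Lower Sgcb in KO-labelled cells was thus not seen (difference 0.63 ± 0.21 SE, adjusted p = 0.0728, limma), so this probe does not bear out the label. A second probe gave 0.41 ± 0.26 (adjusted p = 0.289), and the third was not detected on KO-labelled or WT-labelled arrays. Which part of the gene was removed, and whether the probe lies in it, is not given in the sources used here.

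A level is the log2 ratio of a probe's processed signal to its array's 75th percentile, which is 0 on this scale. Levels of different probes are not comparable, and values of a probe that is not well above background have no order. Differences are log2, first group minus second, ± SE from limma, with p-values adjusted by Benjamini-Hochberg over all tested probes and called under 0.05.

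Muscle stores glucose as glycogen. Glycogen synthase adds glucose units to the particle, and phosphorylase, switched on by phosphorylase kinase, takes them off for glycolysis. Creatine kinase keeps ATP level by trading phosphate with creatine, and myoglobin stores oxygen in the fibre. Many of these steps have an isoform that appears as myoblasts differentiate, beside a form found in most cells.

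RefSeq promoter windows (GRCm38.p6, 250 bases before to 50 after an annotated start) were available for all 10 genes, in 15 windows. The E-box CANNTG, the sequence bound by the MyoD family, was in at least 1 window of 10 of the 10 genes, but 72.3% of all 32851 windows hold it. Its form CAGCTG, searched on both strands and a subset of CANNTG, was in 9 of the 15 windows and in 8 of the 10 genes, all but Stbd1 and Pfkm. Over all windows and genes listed, 16.3% of windows and 18.3% of genes hold it. The windows of the 5 genes called lower in WT-labelled cells than in C2C12 are printed so that their matches can be seen, with CAGCTG in capitals in Ckm, Mb, Pgam2 and Pygm, and in Stbd1, which has none, the CArG box in capitals. For Mb, 1 of its 3 windows is shown.
Stbd1 (chr5:92602801-92603100, plus strand): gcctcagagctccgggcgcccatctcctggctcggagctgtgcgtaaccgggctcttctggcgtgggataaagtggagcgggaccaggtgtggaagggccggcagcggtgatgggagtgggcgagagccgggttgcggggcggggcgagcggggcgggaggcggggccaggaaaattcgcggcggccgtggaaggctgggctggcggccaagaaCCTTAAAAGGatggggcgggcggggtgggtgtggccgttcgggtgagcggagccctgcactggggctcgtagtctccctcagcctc
Pygm (chr19:6384158-6384457, plus strand): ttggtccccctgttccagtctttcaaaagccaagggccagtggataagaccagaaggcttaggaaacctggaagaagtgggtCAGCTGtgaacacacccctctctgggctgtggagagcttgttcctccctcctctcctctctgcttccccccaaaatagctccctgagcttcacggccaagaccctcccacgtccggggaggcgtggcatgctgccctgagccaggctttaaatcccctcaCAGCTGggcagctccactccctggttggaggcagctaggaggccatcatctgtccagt
Pgam2 (chr11:5803747-5804046, minus strand): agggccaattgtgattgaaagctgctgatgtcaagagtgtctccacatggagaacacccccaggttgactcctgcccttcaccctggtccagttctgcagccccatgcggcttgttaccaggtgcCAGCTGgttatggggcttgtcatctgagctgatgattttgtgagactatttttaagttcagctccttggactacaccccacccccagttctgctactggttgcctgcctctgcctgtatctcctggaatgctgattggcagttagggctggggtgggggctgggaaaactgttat
Ckm (chr7:19410844-19411143, plus strand): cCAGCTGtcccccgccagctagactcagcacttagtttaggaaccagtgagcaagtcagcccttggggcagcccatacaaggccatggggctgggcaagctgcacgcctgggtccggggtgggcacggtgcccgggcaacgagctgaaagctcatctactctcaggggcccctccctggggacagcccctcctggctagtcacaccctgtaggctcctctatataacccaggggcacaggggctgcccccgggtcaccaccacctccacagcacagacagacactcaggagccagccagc
Mb (chr15:77022738-77023037, minus strand): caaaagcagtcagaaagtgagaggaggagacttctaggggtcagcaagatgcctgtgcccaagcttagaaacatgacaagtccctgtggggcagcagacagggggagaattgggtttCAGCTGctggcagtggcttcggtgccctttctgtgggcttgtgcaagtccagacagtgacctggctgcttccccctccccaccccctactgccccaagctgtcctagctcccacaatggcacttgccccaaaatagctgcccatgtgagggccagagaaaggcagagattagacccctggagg
Each of Pygm and Gys1 held CAGCTG more than once. The CArG box, bound by serum response factor, was found in Stbd1 but in no window of the other 9 genes (1.63% of all windows). A match to the MEF2 site was found in Pgam2 alone among the 10 (3.19%). TATAAA was in 0 of the 15 windows (13.6% of all windows). A match is a run of letters in a window and says nothing of binding in these cells.

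Stbd1 separated the genotypes most widely of the 10. It encodes starch-binding domain-containing protein 1, which binds glycogen and anchors it to membranes. Probe 1 (mm8 chr5:93681311-93681370) was at 4.31 in KO-labelled ventricle, 2.62 in KO-labelled atrium and 2.41 in KO-labelled aorta cells, against -7.70, -6.80 and -6.57 in WT-labelled ventricle, atrium and aorta cells. C2C12 1 and C2C12 2 were at 2.61 and 2.70. The KO-labelled and C2C12 samples shared a range, and the probe was well above background on 0 of 3 WT-labelled arrays. The KO minus WT difference is then a bound, written "at least", taken against a floor set on each dim array: the probe's signal there or the array's detection limit (its dimmest probe well above background), whichever is higher. Stbd1 was at least 259-fold higher in KO-labelled than in WT-labelled cells (fitted difference 10.13 ± 0.57, adjusted p = 0.000107), and with the slide set as a block the difference was 10.22 ± 1.14 (adjusted p = 0.00727). Against C2C12, WT-labelled cells were at least 188-fold lower (adjusted p = 5.08e-05), while KO-labelled cells differed by 0.46 ± 0.59 (adjusted p = 0.86).

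The other Stbd1 probes lie at lower coordinates than probe 1 (mm8 chr5:93679843-93679902 for probe 2 and chr5:93679823-93679882 for probe 3) and share 40 bases, so they are not independent of each other. Probe 2 was at -0.64, -1.79 and -1.83 in KO-labelled ventricle, atrium and aorta cells, against -5.80, -6.36 and -6.77 in the WT-labelled cells of those regions. It was at -2.23 in C2C12 1 and -1.92 in C2C12 2. Neither probe 2 nor probe 3 was well above background in WT-labelled cells. KO-labelled cells were at least 11.2-fold higher by probe 2 (adjusted p = 0.000467) and at least 11.8-fold higher by probe 3 (adjusted p = 0.000263). All 3 probes stayed called under every alternative in which they were tested, from 17 to 18 per probe, with adjusted p no higher than 0.0211. The size depends on the background correction: with normexp, which adds an offset to each signal, the fitted differences were 6.94, 2.60 and 2.80 for probes 1, 2 and 3, each smaller than its bound, so "at least" holds for the processed signal and not for normexp. Within the KO-labelled cells the ventricle sample was the highest on each probe, 1.90 above the aorta sample on probe 1.

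**Figure D1:**
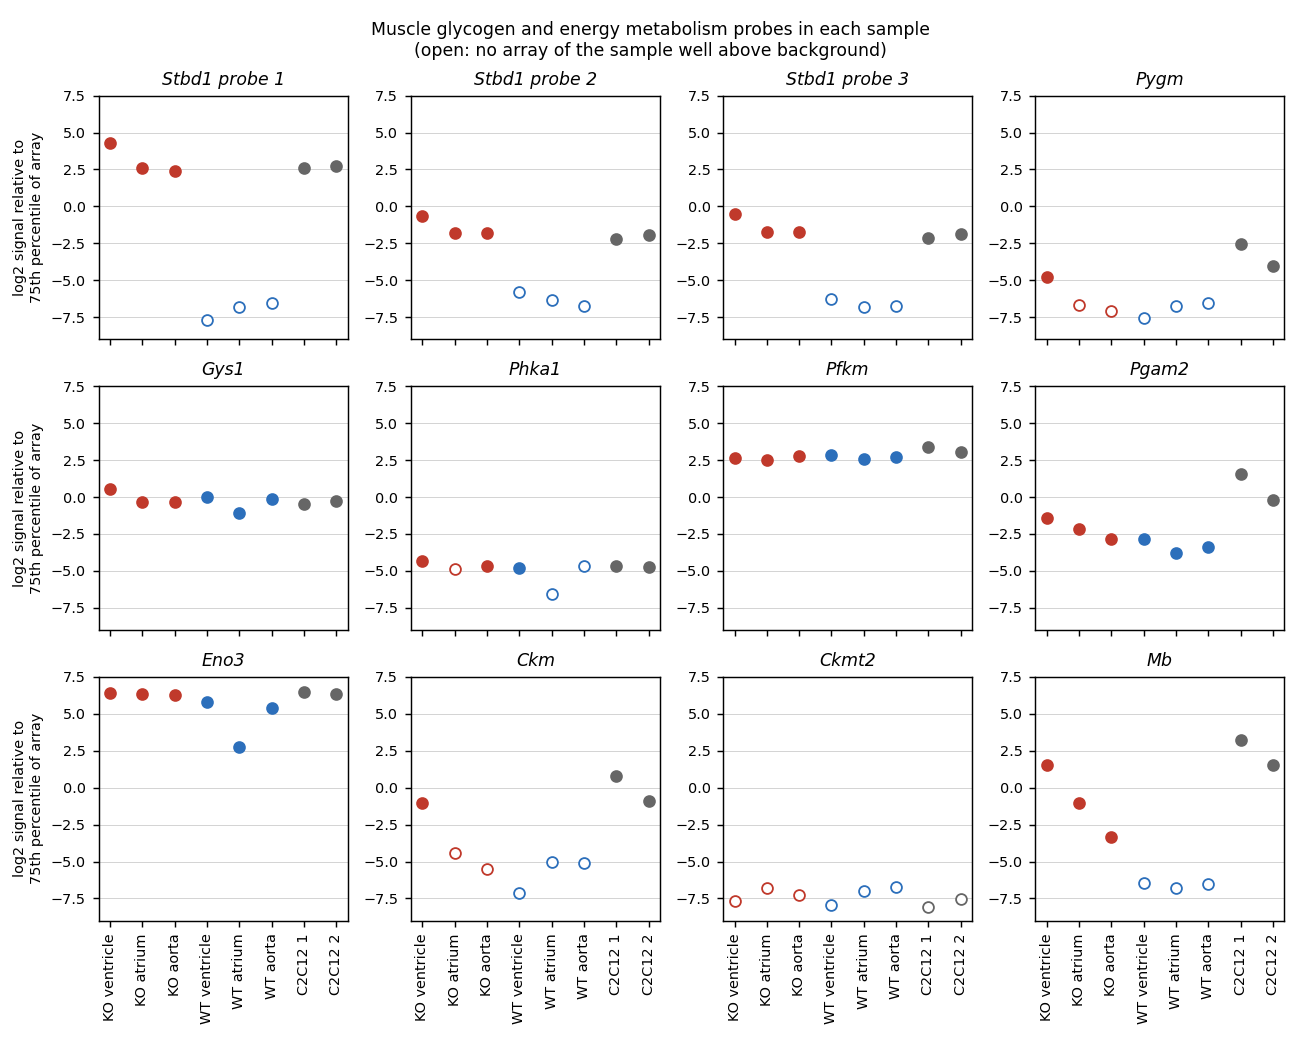
Log2 signal relative to the 75th percentile of the array (y axis) of each of the 12 probes in the 8 samples, KO-labelled in red, WT-labelled in blue and C2C12 in grey, with open symbols where no array of a sample was well above background. Stbd1 is at background in the WT-labelled samples only, and Mb, Ckm, Pygm and Pgam2 are highest in C2C12 1. Pfkm is nearly level, Gys1 has a range of 1.59 with overlapping groups, and Ckmt2 is at background throughout.

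Gys1, the muscle and general form of glycogen synthase (mm8 chr7:45323618-45323677), was measured on every array and did not separate the groups. It was at 0.54, -0.33 and -0.34 in KO-labelled ventricle, atrium and aorta cells, against 0.03, -1.05 and -0.11 in WT-labelled cells of those regions, and at -0.48 and -0.24 in C2C12 1 and C2C12 2. The ranges overlapped in each comparison. The difference was 0.33 ± 0.38 for KO minus WT (adjusted p = 0.555), 0.32 ± 0.40 for KO minus C2C12 (adjusted p = 0.852) and -0.02 ± 0.40 for WT minus C2C12 (adjusted p = 0.984). Leaving out the WT-labelled atrium sample, the lowest of the 8, brought the KO minus WT difference to 0.00.

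Pygm, muscle glycogen phosphorylase, whose loss causes McArdle disease in humans, was a C2C12 signal with a trace in 1 progenitor sample (mm8 chr19:6397893-6398064). It was at -4.79 in KO-labelled ventricle cells, where both arrays were well above background, and at -6.65 and -7.10 in KO-labelled atrium and aorta cells, where none was. WT-labelled ventricle, atrium and aorta cells were at -7.54, -6.76 and -6.55, with 0 of 3 arrays well above background. C2C12 1 was at -2.56 and C2C12 2 at -4.01, both above all 6 progenitor samples. WT-labelled cells were at least 3.08-fold lower than C2C12 (fitted difference -3.67 ± 0.74, adjusted p = 0.0108), a call that was lost with the slide set as a block (adjusted p = 0.0837), with normexp background correction (adjusted p = 0.0626) and without C2C12 1 (adjusted p = 0.0819). For KO minus C2C12 the difference was -2.90 ± 0.74 (adjusted p = 0.165), and too few arrays were above background to test KO against WT.

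Phka1, the muscle regulatory subunit of phosphorylase kinase (mm8 chrX:98720193-98723509), was near the detection limit. Its probe was well above background on 3 of 5 KO-labelled, 1 of 3 WT-labelled and 2 of 3 C2C12 arrays. KO-labelled cells were at -4.34 (ventricle), -4.88 (atrium) and -4.65 (aorta), against -4.82, -6.56 and -4.70 in WT-labelled ventricle, atrium and aorta cells, and C2C12 1 and 2 were at -4.64 and -4.72. In KO-labelled atrium, WT-labelled atrium and WT-labelled aorta cells the probe was not well above background, so those levels have no order. No comparison was called (KO minus WT 0.74 ± 0.51, adjusted p = 0.328).

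Pfkm, the muscle subunit of phosphofructokinase, which commits glucose to glycolysis (mm8 chr15:97960316-97960375), had the most even levels. It was at 2.63, 2.50 and 2.76 in KO-labelled ventricle, atrium and aorta cells, against 2.82, 2.58 and 2.71 in WT-labelled cells of those regions. C2C12 1 and C2C12 2 were higher, at 3.40 and 3.06, and did not overlap with either progenitor group. The KO minus WT difference was -0.07 ± 0.15 (adjusted p = 0.755), and median scaling turned its sign (0.03). The progenitors were below C2C12 by differences that were not called, -0.60 ± 0.17 for KO-labelled (adjusted p = 0.216) and -0.53 ± 0.17 for WT-labelled cells (adjusted p = 0.0603).

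Pgam2, the muscle phosphoglycerate mutase (mm8 chr11:5701822-5703040), was called between WT-labelled cells and C2C12. It was at -1.44, -2.19 and -2.86 in KO-labelled ventricle, atrium and aorta cells, against -2.87, -3.82 and -3.39 in WT-labelled cells of those regions. C2C12 1 was at 1.58 and C2C12 2 at -0.19, above all 6 progenitor samples. WT-labelled cells were lower than C2C12 by a called difference (-4.06 ± 0.60, adjusted p = 0.00301, and -3.17 ± 0.59 with adjusted p = 0.0197 in the slide-blocked fit), and the KO-labelled difference was not called (-2.86 ± 0.60, adjusted p = 0.1). Between genotypes every KO-labelled sample was at or above the highest WT-labelled one, but the gap between KO-labelled aorta and WT-labelled ventricle was smaller than the spread within either group. That difference was 1.20 ± 0.41 (adjusted p = 0.0773). It was called under 4 alternatives in limma. Of these, 1 was normexp (1.05, adjusted p = 0.016) and 1 was region as a block (adjusted p = 0.0439). The others were every array its own sample (adjusted p = 0.0482), where joined arrays count more than once, and leaving out the KO-labelled aorta sample (1.54, adjusted p = 0.0437). With the slide set as a block the difference turned to -0.57 ± 0.83 (adjusted p = 0.787). C2C12 1 exceeded C2C12 2 by 1.76, an amount that the block subtracts from the KO minus WT difference. Whether the 2 C2C12 samples differ by slide or by culture cannot be told apart.

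Eno3, the muscle enolase (mm8 chr11:70478622-70478681), was at nearly 1 level in 5 samples and low in 1. It was at 6.39, 6.32 and 6.30 in KO-labelled ventricle, atrium and aorta cells, and at 6.45 and 6.34 in C2C12 1 and C2C12 2. WT-labelled cells were at 5.78 in ventricle, 2.74 in atrium and 5.42 in aorta. The WT-labelled samples thus lay below all others, with the atrium sample far below the other two. The KO minus WT difference was 1.69 ± 0.78 (adjusted p = 0.157), and without the WT-labelled atrium sample it was smaller and called (0.74, adjusted p = 0.0151). WT minus C2C12 behaved alike, at -1.75 ± 0.81 (adjusted p = 0.159) with that sample and -0.79 (adjusted p = 0.0107) without it. KO minus C2C12 was -0.05 ± 0.81 (adjusted p = 0.994).

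Ckm, the cytosolic muscle creatine kinase (mm8 chr7:18575395-18578002), was well above background in KO-labelled ventricle cells and C2C12 alone. KO-labelled ventricle cells were at -1.04, and KO-labelled atrium and aorta cells at -4.41 and -5.52 with no array well above background. WT-labelled ventricle, atrium and aorta cells, at -7.15, -5.05 and -5.11, were all below the detection limit. C2C12 1 was at 0.77 and C2C12 2 at -0.87. WT-labelled cells were at least 28.9-fold lower than C2C12 (fitted difference -5.72 ± 1.33, adjusted p = 0.0186). This call was lost with the slide set as a block (-4.90, adjusted p = 0.124), without the WT-labelled ventricle sample (-5.03, adjusted p = 0.0529), without C2C12 1 (-4.90, adjusted p = 0.122) and without C2C12 2, where the difference was wider (-6.54, adjusted p = 0.0579). With normexp it was called at -3.23 (adjusted p = 0.00934), which is below the bound. KO minus C2C12 was -3.61 ± 1.33 (adjusted p = 0.336), with the KO-labelled ventricle sample close to C2C12 2. KO against WT was not tested, with 2 of 5 KO-labelled arrays well above background and overlapping groups.

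Ckmt2, the sarcomeric creatine kinase of mitochondria (mm8 chr13:92327876-92330024), was not well above background on any of the 11 arrays, so its level has only an upper bound in all groups.

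Mb, myoglobin (mm8 chr15:76842894-76842953), was called between the genotypes beside Stbd1, with a steep order among the KO-labelled samples. It was at 1.52 in KO-labelled ventricle, -1.03 in KO-labelled atrium and -3.34 in KO-labelled aorta cells, against -6.42, -6.76 and -6.55 in WT-labelled ventricle, atrium and aorta cells. C2C12 1 and C2C12 2 were at 3.23 and 1.51. The KO-labelled ventricle sample was level with C2C12 2, and no WT-labelled array was well above background. Mb was at least 15.5-fold higher in KO-labelled than in WT-labelled cells (fitted difference 5.62 ± 1.14, adjusted p = 0.0142). The call was lost with the slide set as a block (3.90 ± 2.28, adjusted p = 0.437) and without the WT-labelled aorta sample (5.64, adjusted p = 0.0521), where the difference was no smaller. It was 3.38 with normexp (adjusted p = 0.0172), which is below the bound, and 4.39 without the KO-labelled ventricle sample (adjusted p = 0.0125). WT-labelled cells were at least 155-fold lower than C2C12 (adjusted p = 0.0023, and 0.0251 with the slide block), and KO minus C2C12 was -3.32 ± 1.25 (adjusted p = 0.351). In cultures of mixed cells, fewer cells with a transcript and less of it per cell cannot be told apart.

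**Figure D2:**
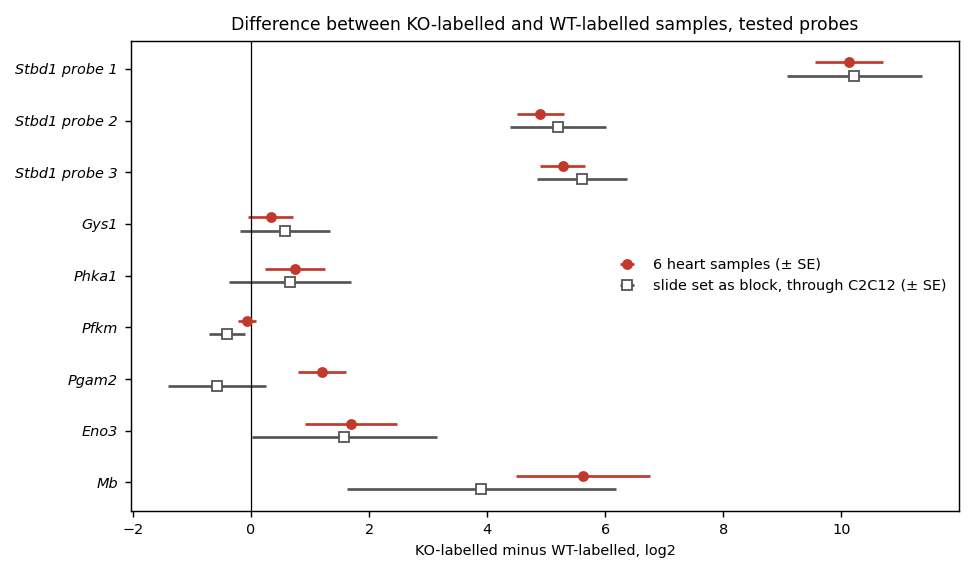
KO-labelled minus WT-labelled difference in log2 signal (x axis) of the 9 tested probes, from the 6 heart samples (filled circles) and with the slide set as a block through C2C12 (open squares), bars showing ± SE. The Stbd1 probes lie far to the right in both fits, Mb is at 5.62 and at 3.90 with a wider error, and Pgam2 changes side, at 1.20 and at -0.57.

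Counted together, 7 of the 10 genes could be tested between KO-labelled and WT-labelled cells. Of these, 2 were higher (Stbd1 and Mb), 0 were lower and 5 were not called. Stbd1 and Mb had no WT-labelled array well above background. They were tested because KO-labelled arrays were, so a call for them could only be higher. Among all 22672 probes tested in that comparison, 13.3% were called higher, 15.8% lower and 29.0% in either direction. The groups did not overlap for 4 of the 7 (Stbd1, Pgam2, Eno3 and Mb), all higher in KO-labelled cells, where 21.6% of all probes were higher without overlap. The median difference of the 7 was 1.20, against -0.06 over all probes, and was the same with genes at background entered at their bound. With median scaling in place of the 75th percentile the split over all probes turned to 3268 higher and 2620 lower, against 3008 higher and 3578 lower. With normexp background correction it was 2125 higher and 1501 lower.

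Against C2C12, 9 genes could be tested. In WT-labelled cells 5 were lower (Stbd1, Pygm, Pgam2, Ckm and Mb) and 0 higher, where 12.7% of all 23894 probes were called lower, 13.9% higher and 26.5% in either direction. Stbd1, Pygm, Ckm and Mb had no WT-labelled array well above background. They were tested because KO-labelled and C2C12 arrays were, so a call in WT-labelled cells could only be lower. WT-labelled cells lay below C2C12 without overlap for 7 of the 9, against 25.1% of all probes. The median difference of the 9 was -3.67, or -1.75 with genes at background entered at their bound, against 0.05 over all probes. Median scaling changed the split over all probes to 2688 higher and 3053 lower, against 3312 higher and 3028 lower, and normexp to 1288 higher and 1874 lower. In KO-labelled cells 0 of the 9 were called, where 0.523% of all probes were called higher, 0.485% lower and 1.01% in either direction. An unadjusted p under 0.05 in limma was found for 5 of the 9, and for 2888 of all 23894 probes. KO-labelled cells lay below C2C12 without overlap for 4 of the 9 (Pygm, Pfkm, Pgam2 and Ckm), against 19.6% of all probes. With every array taken as its own sample, 3 of the 9 (Pfkm, Pgam2 and Pygm) were called lower in KO-labelled cells than in C2C12. That setting counts joined arrays more than once, and with it the calls over all 23894 probes rose from 241 to 2408. The KO-labelled and WT-labelled comparisons use the same C2C12 samples.

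On the slides themselves, each array has a C2C12 array beside it. Set against that array, the KO-labelled samples kept the order ventricle, atrium, aorta for Mb. WT-labelled ventricle cells lay below KO-labelled aorta cells, and whether WT-labelled atrium and aorta cells did could not be told. On slide 1, Mb was 1.73 below C2C12 in KO-labelled ventricle and 6.54 below it in KO-labelled aorta cells (differences -1.73 and -6.54). On slide 3 the differences were -1.69 for KO-labelled ventricle, -4.23 for KO-labelled atrium and -6.62 for KO-labelled aorta cells, and on slide 2 they were -7.92 for WT-labelled ventricle, -8.26 for WT-labelled atrium and -8.06 for WT-labelled aorta cells. The WT-labelled arrays did not detect Mb, so by their detection limits the differences are at most -7.10 (ventricle), -6.19 (atrium) and -5.95 (aorta). The ventricle bound lies below the differences of KO-labelled aorta cells. The atrium and aorta bounds lie above them, so they do not place those WT-labelled samples above or below KO-labelled aorta cells. For Pgam2 the within-slide difference from C2C12 ran from -4.64 to -2.99 on the KO-labelled arrays and from -3.63 to -2.69 on the WT-labelled arrays, which overlap.

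Among the KO-labelled samples, ventricle exceeded aorta by 4.87 for Mb and by 1.42 for Pgam2, and Ckm and Pygm were detected in ventricle alone. In the WT-labelled samples the ventricle minus aorta difference was 0.51 for Pgam2. A region effect shared by the genotypes was called for none of the 7 genes tested in limma's moderated F test. Pygm, Ckm and Ckmt2 had too few arrays above background and were not tested. Over all probes a region effect was called for 0 of 22672 (0.00%), with 4.98% at an unadjusted p under 0.05. The lowest values among the 9 tested probes were unadjusted p = 0.0159 and 0.0478, for Stbd1 probes 2 and 3 (adjusted p = 0.785 for both). Each genotype had 1 sample per region, so whether the region order differs between genotypes was not tested.

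The order KO-labelled ventricle, then atrium, then aorta also held for a list of 24 skeletal muscle differentiation genes. Their mean level was 1.29, -0.38 and -1.67 in KO-labelled ventricle, atrium and aorta cells, against -4.92, -4.71 and -4.84 in WT-labelled cells of those regions. It was 2.41 in C2C12 1 and 1.33 in C2C12 2. Of the 22 genes of this list tested between genotypes, 14 were higher and 1 lower in KO-labelled cells. Among the higher were the calcium channel subunit Cacng1 (at least 183-fold) and the acetylcholine receptor subunit Chrna1. The fitted difference of Chrna1 was 10.64, with 1 of 3 WT-labelled arrays well above background, or 9.66 with the others at their detection limit. Ryr1 and Mef2c lay lower in every KO-labelled than in any WT-labelled sample. Ryr1 was at -1.68, -1.41 and -1.60 in KO-labelled ventricle, atrium and aorta cells, against -0.81, -0.79 and -1.13 in WT-labelled cells. Mef2c was at -2.33, -2.79 and -2.88, against -1.98, -1.19 and -2.18. Over all probes tested between genotypes, 13.3% were called higher and 15.8% lower. Genes of the list without a WT-labelled array well above background, such as Cacng1, were tested because KO-labelled arrays were. A call for such genes could only be higher. Summed over the list, the level was 43 to 250 times the 75th percentile in KO-labelled samples, against 3.54 to 6.12 times in WT-labelled samples. In C2C12 it was 208 to 531 times that percentile. Such a sum adds levels of different probes, so the brightest probes carry it. C2C12 1 was above C2C12 2 by 1.73 for Mb, 1.65 for Ckm, 1.45 for Pygm and 1.76 for Pgam2, but by -0.09 for Stbd1 probe 1. The part of differentiation state in the values of Mb, Ckm, Pygm and Pgam2 was not tested.

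**Figure D3:**
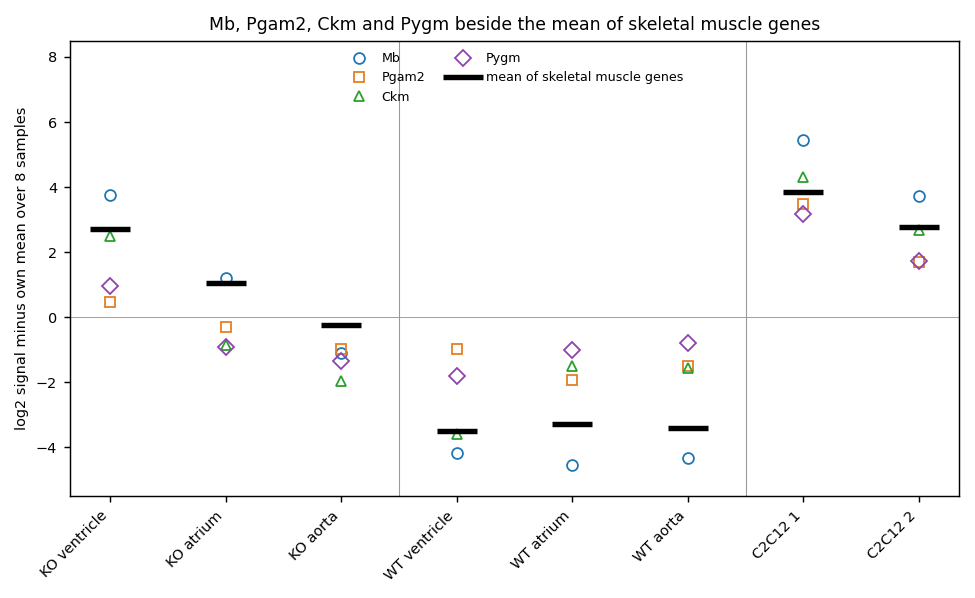
Log2 signal of Mb, Pgam2, Ckm and Pygm and the mean of 24 skeletal muscle genes (black bars) in the 8 samples, each minus its own mean over the samples (y axis). All 5 are highest in C2C12 1, and among the KO-labelled samples Mb, Pgam2 and the muscle mean are highest in ventricle and lowest in aorta, while Ckm and Pygm are detected in ventricle alone.

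Markers of other cells were read from lists in the same way. Beside the counts below stand the shares over all tested probes, 13.3% higher and 15.8% lower in KO-labelled cells. These counts, and those of the skeletal muscle list, come from the fit without the slide block. Over all probes the block cut the calls from 6586 to 1261. A gene at background in 1 genotype could be called in 1 direction only, in these lists and in those further below. Of 12 cardiomyocyte markers Myl2, Ryr2 and Tbx5 were not well above background on any array, and of the 7 tested between genotypes 4 were higher and 2 lower in KO-labelled cells. Of 7 endothelial markers Pecam1, Cdh5, Kdr and Emcn were never well above background, and the 2 tested were lower. Blood and macrophage markers gave 0 higher and 2 lower of 4 tested, with Ptprc and Adgre1 never detected. Fibroblast markers gave 2 higher and 3 lower of 5 tested, with Thy1 at least 1293-fold lower in KO-labelled cells. Every KO-labelled sample also lay below every WT-labelled one for Pdgfra and Dcn. The collagens went the other way, at 6.17 to 6.22 in KO-labelled against 5.21 to 5.57 in WT-labelled samples for Col1a1. For Col3a1 the levels were 5.85 to 6.02 against 2.89 to 4.93. Smooth muscle and pericyte markers gave 2 higher and 0 lower of 5, and proliferation genes 0 of 7 in either direction. A summed level adds different probes, so the brightest of them carry it, and it is no measure of cell content. Summed levels, in multiples of the 75th percentile, were 19.7 to 41.6 in KO-labelled and 2.75 to 6.95 in WT-labelled samples for the cardiomyocyte list. In C2C12 the sums of that list were 23.2 and 49.6. Most of each sum was the signal of 1 bright probe, that of Tnnt2, the cardiac troponin T. It was at 5.34, 4.74 and 4.24 in KO-labelled ventricle, atrium and aorta cells, against 1.18, 2.63 and 1.28 in WT-labelled cells. In C2C12 it was at 5.61 and 4.49. Nppa and Nppb, both dimmer, lay lower in every KO-labelled than in any WT-labelled sample. Nppa was at -5.33, -5.72 and -5.42 in KO-labelled ventricle, atrium and aorta cells, against -3.14, -3.20 and -3.47 in WT-labelled cells. Nppb was at -4.33, -3.21 and -4.13, against -2.26, -1.23 and -2.00 in WT-labelled cells of those regions. The mean log2 level of the list was -4.47 to -4.12 in KO-labelled samples, against -5.08 to -4.54 in WT-labelled samples. The sums were 0.467 to 0.709 against 1.12 to 3.23 for the endothelial list and 0.157 to 0.224 against 1.2 to 2.34 for the blood list. They were 132 to 141 in KO-labelled and 86.2 to 166 in WT-labelled samples for the fibroblast list, and 160 to 300 against 34.8 to 171 for the smooth muscle and pericyte list. The part of cell composition in the differences was not tested.

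Among 24 further glycogen genes, 17 were tested between genotypes, with 3 higher and 3 lower in KO-labelled cells and a median difference of -0.29. Over all tested probes 13.3% were called higher and 15.8% lower, so these counts do not set the list apart. Gyg, glycogenin, the protein that primes a glycogen particle, was at 3.51, 3.57 and 3.22 in KO-labelled ventricle, atrium and aorta cells, against 1.47, 1.97 and 1.49 in WT-labelled cells of those regions. The groups did not overlap, and Gyg was higher by 1.79 ± 0.20 (adjusted p = 0.00151, and 0.0475 with the slide block), with C2C12 at 3.25 and 3.44. Ppp1r3d, a subunit that brings protein phosphatase 1 to glycogen, moved the other way. It was at -7.27, -6.52 and -6.95 in KO-labelled ventricle, atrium and aorta cells, with no array well above background, against -1.03, -0.83 and -1.83 in WT-labelled cells of those regions, so that it lay at least 13.2-fold lower (adjusted p = 0.000113, or 0.0111 with the slide block). Ppp1r3b, a related subunit, was higher (adjusted p = 0.00699) from 3 of 5 KO-labelled arrays, without a fold because the KO-labelled signal lay near the limit, and the call was lost with the slide block (adjusted p = 0.107).

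Among the relatives of Pygm, Gys1 and Phka1, Pygb, the brain phosphorylase, was lower in KO-labelled cells (difference -0.78 ± 0.20, adjusted p = 0.0331, lost with the slide block at 0.535). Pygl and Gys2, the liver forms of phosphorylase and synthase, were not well above background on any array. Phka2, the liver subunit of phosphorylase kinase, was not called (-0.15 ± 0.63, adjusted p = 0.882). Phkg2 and Phkb, further subunits of that kinase, complete the count of calls, Phkg2 higher and Phkb lower. They were named after their values were seen, and both calls were lost with the slide block (adjusted p = 0.199 and 0.443).

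Of 20 further glycolysis genes, all 20 were tested, with 5 higher and 3 lower in KO-labelled cells and a median difference of 0.04. The shares over all tested probes were 13.3% higher and 15.8% lower. Slc2a4, the insulin-responsive glucose transporter GLUT4, was at -1.48, -2.16 and -2.00 in KO-labelled ventricle, atrium and aorta cells, against -4.06, -6.75 and -4.83 in WT-labelled cells, where 1 of 3 arrays was well above background. It was higher in KO-labelled cells (adjusted p = 0.0143, lost with the slide block at 0.288), with a fitted difference of 3.34 ± 0.68, or 2.52 with undetected arrays at their detection limit. Ldhb, the lactate dehydrogenase subunit of oxidative tissues, was lower in KO-labelled cells (difference -2.03 ± 0.36, adjusted p = 0.00862, lost with the slide block at 0.303). Its levels were 2.88, 2.65 and 2.29 in KO-labelled ventricle, atrium and aorta cells, against 5.18, 3.90 and 4.83 in WT-labelled cells of those regions, and 0.57 and 1.03 in C2C12.

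The relatives of Pfkm, Pgam2 and Eno3 gave no common direction. Pfkp, the platelet phosphofructokinase, was higher in KO-labelled cells (1.17 ± 0.16, adjusted p = 0.00364, and 0.0388 with the slide block), and Pfkl, the liver form, was not called (0.33 ± 0.44). Pgam1, the general mutase, differed by 0.06 ± 0.17 (adjusted p = 0.807). Eno1, the general enolase, was higher (0.96 ± 0.19, adjusted p = 0.0145) and Eno2, the neuronal enolase, lower (-1.44 ± 0.40, adjusted p = 0.0403), and both calls were lost with the slide block (adjusted p = 0.157 and 0.343). The remaining calls of the list, named after their values were seen, were Aldoc and Pkm, higher, and Pfkfb3, lower, all lost with the slide block (adjusted p = 0.19, 0.277 and 0.188). The brightest tested probe stood for each gene of a list, and for Hk1, a hexokinase, that probe was not called (1.02 ± 0.34, adjusted p = 0.07) while 3 of its 4 tested probes were, with differences of 1.02 to 1.29 over the 4. Cross-hybridisation between these close relatives was not tested.

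Of 9 further genes of phosphate transfer, 7 were tested between genotypes, with 3 higher and 0 lower, against 13.3% and 15.8% of all tested probes. Ckb, the brain creatine kinase, was at 3.01, 1.88 and 1.66 in KO-labelled ventricle, atrium and aorta cells, against -4.38, -4.97 and -4.72 in WT-labelled cells, where 1 of 3 arrays was well above background. It was at 2.81 and 2.11 in C2C12, within the spread of the KO-labelled samples, and the KO minus WT difference was 6.87 ± 0.38, or 6.69 with undetected arrays at their limit (adjusted p = 0.000104, and 0.0104 with the slide block). Gatm, which makes the precursor of creatine, was not well above background in WT-labelled cells and was at least 52.2-fold higher in KO-labelled cells (adjusted p = 3.7e-05, and 0.00392 with the slide block). Its levels were 0.94, 0.86 and 0.62 in KO-labelled ventricle, atrium and aorta cells, against -7.88, -6.95 and -6.72 in WT-labelled cells. Adssl1, the muscle adenylosuccinate synthase of the purine nucleotide cycle, was higher by 3.45 ± 0.40 (adjusted p = 0.00177, lost with the slide block at 0.167). Ckmt1, the ubiquitous mitochondrial creatine kinase, was not well above background on any KO-labelled or WT-labelled array.

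**Figure D4:**
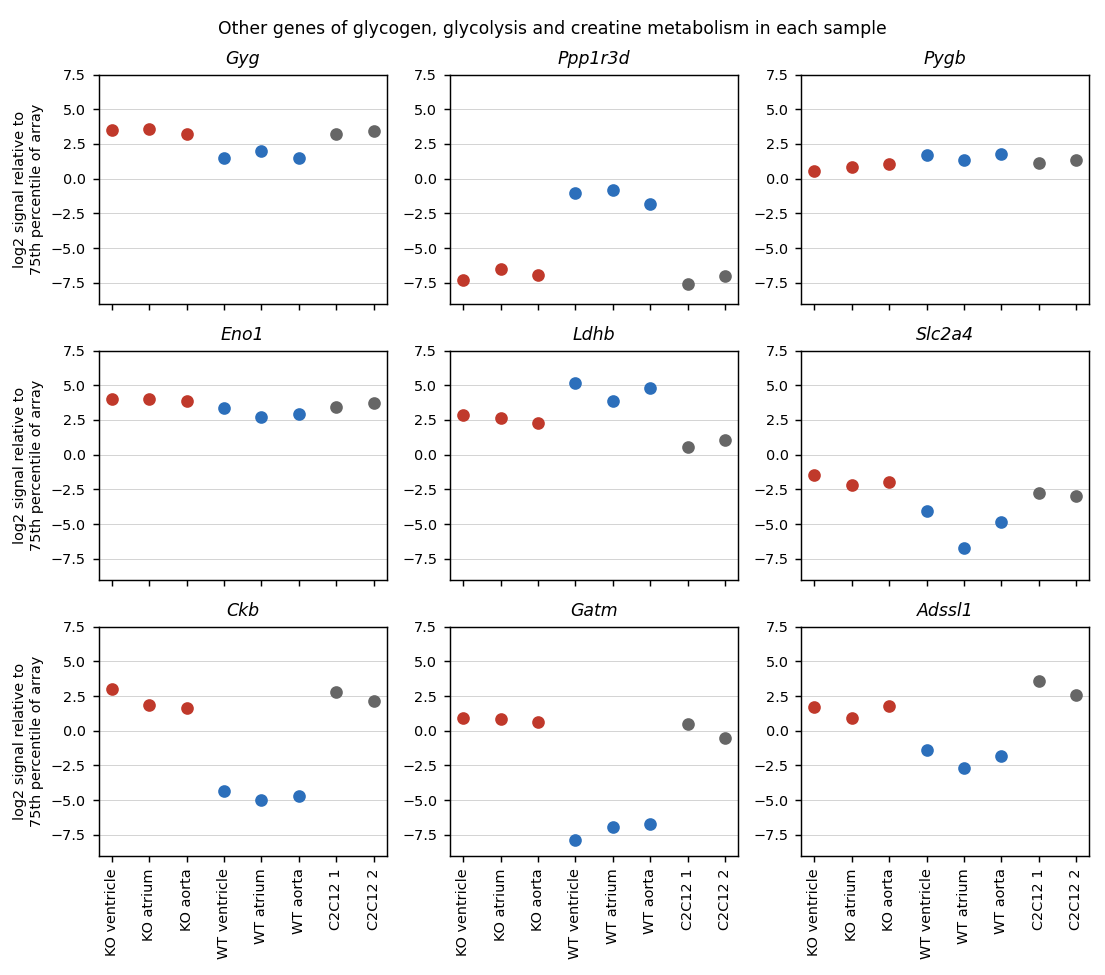
Log2 signal relative to the 75th percentile of the array (y axis) of 9 further genes in the 8 samples, KO-labelled in red, WT-labelled in blue and C2C12 in grey. Gyg, Ckb, Gatm, Adssl1 and Slc2a4 are higher in every KO-labelled than in any WT-labelled sample, and Ppp1r3d and Ldhb lower, with Gatm in WT-labelled cells and Ppp1r3d in KO-labelled cells and C2C12 at background.

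The genes whose profiles were most like each gene were sought among 15807 genes over the 8 samples, by the smallest root mean square difference between mean-centred log2 values. This is a description of 8 samples that share groups and slides. Values at background were used too, and Stbd1, Mb, Ckm and Pygm were undetected in all WT-labelled samples. Likeness to a gene at background in the same samples is thus set in part by the floor of each array. For Mb they were Tnnc2 (0.24), Tnnt3 (0.24) and Mylpf (0.31), a troponin C, a troponin T and a myosin light chain of fast muscle. For Ckm they were Arpp21 (0.36), Neb (0.41), which encodes nebulin, and an unnamed transcript (0.48), and for Pygm they included Shisa2 (0.16) and Actn2 (0.16), both near background in most progenitor samples. Stbd1 was followed by Igfbp5 (0.43), Tpd52l1 (0.50) and Popdc3 (0.53), and the nearest of the other genes of this set was Mb at 2.27. Igfbp5, an insulin-like growth factor binding protein, was at 5.60, 3.27 and 2.79 in KO-labelled ventricle, atrium and aorta cells, against -7.61, -6.72 and -6.53 in WT-labelled cells, and at 3.54 and 3.46 in C2C12. For Eno3 the nearest was Lonrf1 (0.18), which was also low in the WT-labelled atrium sample, at -5.32, against -2.18 in WT-labelled ventricle and -2.29 in WT-labelled aorta cells. For Pgam2 the nearest was Adamtsl2 (0.43), for Gys1 Bbc3 (0.13) and for Pfkm Rnf170 (0.08).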

How the data were processed

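The deposited scanner files give the intensity of each spot, background-subtracted and not scaled between arrays, per the file headers. The software was Agilent Feature Extraction 9.5.3.1 (submitters' processing notes). A deposited table of the whole series has log2 values, which equalled the scanner values within 0.01 for 99.7 to 99.8% of probes. Control spots (1639 of 45018 per array) and marked spots (39 to 120) were left out, no spot was saturated, and spots of a probe were averaged. Array 75th percentiles ran from 962.4 to 1145.0, and precision is limited by how few arrays there are. Values are log2 of the processed signal minus that percentile.

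In 3 of 16 within-group pairs of arrays the difference was below spot noise (ratio 0.59 to 0.707, against 2.542 or more elsewhere, over 8377 bright probes), and these were averaged to 8 samples. Probes well above background on at least 3 arrays behind a fit were tested per probe with limma 3.58.1 in R 4.3.3. KO with WT, and region with genotype in the model, used the 6 heart samples, and comparisons with C2C12 used all 8. The limma code was tested on simulated data. Python 3.11.15 with pandas 2.3.3, numpy 2.4.6 and matplotlib 3.10.9 made tables and plots. Positions of probes come from the array design on mm8, per the file headers, and names were updated through RefSeq tables of GRCm38.p6, which also gave the promoters.

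The 10 genes, the gene lists and the tests were chosen with earlier results of these data known. Named beside the 10 genes are Sgcb, their paralogs, up to 4 called genes of each list with the largest KO minus WT difference, and the 3 genes with the most similar profiles. The brightest tested probe stood for each gene outside the 10. Alternatives covered joining of arrays, slide and region blocks, background correction, scaling, the filter, 1 probe per gene, the deposited table and leaving out each sample. Protein sequences were not used here. One of the genes most like Pygm is not reported here.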

Additional observations from a re-analysis of the deposited data

Results flagged for a closer look

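For 2 genes measured on every heart array, the KO minus WT difference changed sign between regions, with 1 sample of each genotype per region. For Gys1 it was 0.72 in atrium, 0.51 in ventricle and -0.23 in aorta cells. For Pfkm it was -0.08 in atrium, -0.18 in ventricle and 0.05 in aorta cells. These differences between regions were not tested.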

How the results depend on the processing

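Over 18 alternatives for each comparison between groups, most results of the 10 genes kept their direction and their side of the threshold: 146 of 158 for KO with WT, 184 of 195 for KO with C2C12 and 179 of 195 for WT with C2C12. The probes called between KO-labelled and WT-labelled cells numbered 6586, against 3626 with normexp, 1261 with the slide set as a block, 3701 with every array its own sample and its slide as a block, and 3819 to 8852 leaving out single samples. The genes of this set called there numbered 2, against 1 with either slide block and 1 to 3 leaving out single samples (1 without the WT-labelled aorta sample). Calls between KO-labelled cells and C2C12 numbered 241, against 2408 with every array its own sample, 1363 with its slide as a block as well, 40 with normexp, 135 with no filter, 14 with the slide set as a block, and 9 to 634 leaving out single samples (634 without the WT-labelled atrium sample, 9 without C2C12 1). Genes of this set called there numbered 0, against 3 with every array its own sample, with or without the slide block, and 0 leaving out single samples. Calls between WT-labelled cells and C2C12 numbered 6340, against 10046 with every array its own sample, 3162 with normexp, 3303 with the slide set as a block and 3236 to 8384 leaving out single samples. Genes of this set called there numbered 5, against 3 with either slide block and 3 to 6 leaving out single samples (3 without C2C12 1). Probes called between regions numbered 0, against 197 with every array its own sample, where joined arrays count more than once.

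KO minus WT turned for Pfkm with median scaling (0.03), for Pgam2 with the slide set as a block (-0.57) and with every array its own sample and its slide as a block (-0.55), and for Gys1 without the WT-labelled atrium sample (0.00, in a range of 0.00 to 0.54 leaving out single samples). KO minus C2C12 turned for Eno3 with median scaling and without C2C12 1 (both 0.00, leave-one-out range -0.11 to 0.00), for Phka1 with normexp (-0.13) and without the KO-labelled ventricle sample (-0.08, range to 0.19), and for Stbd1 probe 1 without that sample (-0.14, range to 0.81). WT minus C2C12 turned for Gys1 with every array its own sample (0.03), without the WT-labelled atrium sample (0.32, range from -0.22) and without C2C12 2 (0.11). The causes were not tested. The labels carry no replicate numbers. Region as a block, which pairs the genotypes by region, called 5491 probes and 3 genes of this set. Signal near background limits Ckmt2, Phka1, Pygm and Ckm in progenitors.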

Other observations

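Genes of fuel choice and muscle isoforms of mitochondrial proteins were also read. In KO-labelled cells 3 of the 7 tested were higher than in WT-labelled cells and 0 lower, against 13.3% and 15.8% of all tested probes. Pdk4, the kinase that turns pyruvate dehydrogenase off, was at -0.86, 0.23 and 0.88 in KO-labelled ventricle, atrium and aorta cells, against -6.99, -6.77 and -6.62 in WT-labelled cells of those regions, none of which was well above background. It was at least 31.7-fold higher (limma adjusted p = 0.000163, and 0.0102 with the slide set as a block). Unlike Mb it was lowest in ventricle among the KO-labelled samples, and it was at 1.52 and 1.67 in C2C12. Fabp3, the fatty acid binding protein of heart and muscle, was at 0.67, 0.44 and 0.34 in KO-labelled ventricle, atrium and aorta cells, against -5.20, -5.96 and -6.37 in WT-labelled cells, where 1 of 3 arrays was well above background. Its fitted difference was 6.33 ± 0.31, or 5.26 with undetected arrays at their detection limit (limma adjusted p = 6.8e-05, and 0.00684 with the slide block). Cox7a1, the muscle subunit of cytochrome oxidase, was higher by 1.63 ± 0.18 (limma adjusted p = 0.00159, and 0.0621 with the slide block).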
